A study of Mus musculus with 14 samples.

Results

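Genes that splice, unwind, polyadenylate and degrade RNA were measured in the spleen of the mouse strains AcB55 and AcB61, each against the strain A/J. The set comprised every gene with a single platform symbol beginning with Srsf, Snrp, Snrnp, Hnrnp, Sf3, Prpf, Lsm and a digit, Ddx, Dhx, Gemin, Exosc, Pabpc, Cpsf, Cstf or U2af. The arrays named 102 such genes, of which 99 were measured and tested among 6286 tested genes with a single symbol. Ddx46, Snrpf and Ddx24 were the 3 genes not tested. The symbols alone chose the genes, and no measured value entered that choice.

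AcB55 and AcB61 are recombinant congenic mouse lines, inbred from crosses of A/J and C57BL/6 so that segments of C57BL/6 lie on an A/J background, and both are known for resistance to blood-stage malaria and for a loss-of-function mutation in Pklr, the red cell pyruvate kinase gene. Spleen RNA of AcB55 was hybridised on 6 arrays and that of AcB61 on 8, and each array carried A/J spleen RNA in the other channel. All samples are spleen, and in the labels only the strain tells the groups apart. The sources used here do not give an infection, a treatment, the sex, the age or the number of animals. Nor do they say whether arrays share an animal. The p-values therefore rest on how far arrays differ within the strains, possibly for technical reasons alone, and they leave out variation among A/J mice. A shared estimate of this spread serves both strains, so a p-value of either strain also depends on the arrays of the other.

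Each value was a log ratio of the 2 channels, taken as base 2 and read as strain over A/J. The labels put the strain in channel 1 and A/J in channel 2 without giving the dyes, so this direction is likely and not settled. A value of 0 is the A/J level, and arrays of this kind give differences and no levels, so that members cannot be ranked by abundance and the tissue cannot be checked by whether its markers are present. In whole spleen, fewer cells of a type and less RNA per cell cannot be told apart. The X-inactivation RNA Xist had a mean log ratio of 0.02 in AcB55 and -1.20 in AcB61. Whether sex differed along with the strain was not tested.

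The spliceosome removes introns with small nuclear ribonucleoproteins (snRNPs), in which rings of Sm or LSm proteins sit on a short RNA and the SF3 and PRPF proteins help to recognise and rearrange the splice sites. SR proteins and hnRNPs bind the transcript and steer the choice of splice sites, DEAD and DEAH box helicases remodel RNA and its protein partners, and the SMN complex, which includes the Gemin proteins, loads Sm rings onto RNA. CPSF and CSTF cut the transcript and direct addition of the poly(A) tail, PABPC proteins coat that tail in the cytoplasm, and the exosome degrades RNA from its 3′ end.

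In AcB55 spleen, the poly(A)-binding genes Pabpc4 and Pabpc1 and the exosome gene Exosc9 stood above A/J by 1.62-fold to 2.05-fold. There 6 of 13 hnRNP genes were higher with none lower, beside 9.77% of all features called higher and 10.9% called lower. Of these hnRNP calls, those of Hnrnpa2b1, Hnrnpab, Hnrnph2 and Hnrnpu were lost in some setting tried. Gemin2, which builds Sm rings, was 1.83-fold below A/J in AcB55 and at the A/J level in AcB61. In AcB61 spleen the same trio of Pabpc4, Pabpc1 and Exosc9 was higher, together with 4 LSm ring genes, 2 Sm ring genes and 2 SR protein genes. None of these LSm, Sm and SR genes passed the test between the strains, and each of their calls was lost in some setting tried. Most members moved little: 82 of 99 in AcB55 and 85 of 99 in AcB61 had a mean log ratio within 0.25 of the A/J level.

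The text shows the sequence just before the transcription start of the 3 members whose difference between the strains passed the test in every setting tried, Gemin2, Snrnp48 and Prpf4. They are taken from RefSeq on GRCm38.p6, 5′ to 3′ on the plus strand, as the part of the 250 bases before the listed start that lies outside any annotated gene. The Gemin2 stretch is chr12:59013141-59013390, the Snrnp48 stretch is chr13:38204689-38204913, and the Prpf4 stretch, chr4:62408626-62408761, is the gap between Prpf4 and the divergent gene Cdc26. Capitals mark the GC box GGGCGG on either strand, the only motif found of the 4 searched.
Gemin2: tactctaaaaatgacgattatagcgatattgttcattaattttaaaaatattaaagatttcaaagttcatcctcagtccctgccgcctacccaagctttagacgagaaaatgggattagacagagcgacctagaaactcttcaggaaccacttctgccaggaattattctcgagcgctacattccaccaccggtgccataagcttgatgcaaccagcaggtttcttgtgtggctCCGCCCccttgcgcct
Snrnp48: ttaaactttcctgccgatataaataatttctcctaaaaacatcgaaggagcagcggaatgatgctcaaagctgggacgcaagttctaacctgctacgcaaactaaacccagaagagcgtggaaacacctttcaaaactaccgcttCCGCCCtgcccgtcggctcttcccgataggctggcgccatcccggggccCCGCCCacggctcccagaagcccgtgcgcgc
Prpf4: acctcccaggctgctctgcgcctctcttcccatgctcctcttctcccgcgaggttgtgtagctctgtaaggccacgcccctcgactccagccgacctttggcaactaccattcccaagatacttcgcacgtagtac

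The Gemin2 stretch held 1 GC box, the Snrnp48 stretch held 2 and the Prpf4 stretch held 0. For the shares that follow, all 4 motifs were searched on both strands of the whole 250 bases before the start, untrimmed, in 86 members with an entry and in 27025 promoters in all. A GC box was found in 60.5% of member promoters and in 32.9% of all promoters. The CCAAT box (CCAAT) was in 40.7% of member promoters against 34.5% of all. A GATA motif (AGATAA or TGATAA) was in 5 of 86 member promoters, or 5.81%, against 17.0% of all. An E2F motif (TTTCCCGC or TTTGGCGC) was in only 3 of 86, or 3.49%, against 1.35% of all. These matches describe letters and do not show that a factor binds there. Values for Exosc9, Pabpc1 and Hnrnpll are given below without a promoter sequence.

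Each array gave between 14197 and 14588 log ratios of 15247 features listed, with array medians from -0.0205 to 0.00867. Arrays of AcB55 correlated with each other at a median r of 0.547 over features, and AcB61 arrays at 0.454, but the AcB61 arrays were uneven. AcB61 arrays 2, 6 and 8 correlated with each other at 0.789 to 0.835, arrays 3, 5 and 7 at 0.710 to 0.792, and the first trio with the second at only -0.0832 to 0.156. Calls that were lost on leaving out either trio, a check chosen after seeing the data, are therefore given with the value that remained or its adjusted p. The first 2 AcB55 arrays also stood apart, with mean log ratios of 1.05 and 1.31 over 4 granulocyte genes against -0.0448 to 0.15 on the other AcB55 arrays.

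Log ratios were tested with limma, as 1 mean per strain over all 14 arrays, with Benjamini-Hochberg adjustment over 13045 features at an adjusted p of 0.05. A member is called higher or lower only where it passed. In AcB55, 17 members were higher and 8 lower than A/J, which is 25.3% of 99 against 20.7% of all features and 26.7% of the genes with a single symbol. The higher calls came to 17.2% of members against 9.77% of features and 11.2% of named genes, and the lower calls to 8.08% against 10.9% and 15.5%. The median log ratio was 0.04 over members and -0.0019 over features.

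In AcB61, 21 members were higher and 3 lower, which is 24.2% of members beside 23.8% of features and 22.1% of named genes. Higher calls covered 21.2% of members against 10.5% of features and 13.3% of named genes, and lower calls 3.03% against 13.3% and 8.8%. The median log ratio was 0.08 over members and -0.00067 over features. So the share of members called in either direction lay near the background in both strains, with more of the calls on the higher side than among all features or named genes. Both comparisons share the A/J reference, and their values for each member are therefore set side by side without a test of agreement.

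**Figure D1:**
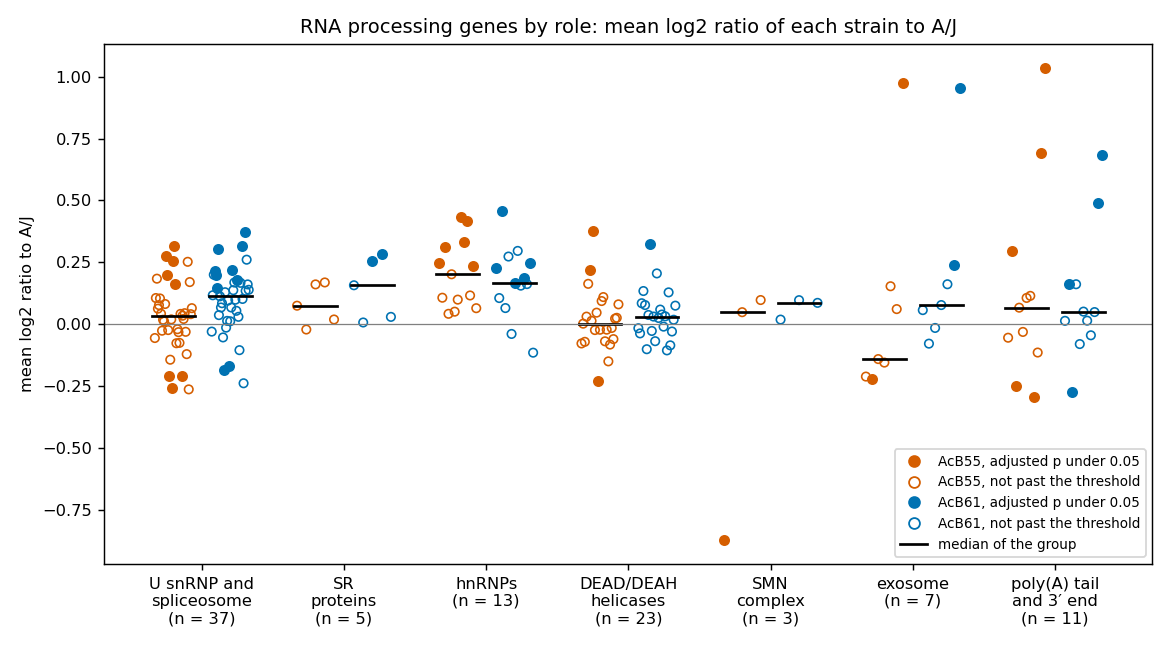
Mean log2 ratio to A/J of each of the 99 members in AcB55 and in AcB61, grouped by role, with filled points for calls at an adjusted p of 0.05, open points for members that did not pass and a bar at each median. The hnRNP points of AcB55 all lie above 0, and the highest points belong to Pabpc4, Exosc9 and Pabpc1 while Gemin2 is the lowest.

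The poly(A) tail and 3′ end group had 11 tested members. In AcB55, 3 were higher and 2 lower, and in AcB61, 3 were higher and 1 lower. Pabpc4, a cytoplasmic poly(A)-binding protein that was first described in activated T cells, ranged on the AcB55 arrays from 0.73 through a median of 1.07 to 1.29. On the 7 AcB61 arrays with a value it ranged from 0.43 through 0.45 to 1.22. All of these values were above the A/J level, and the ranges of the strains overlapped. The mean was 1.04 ± 0.18 (SD, n = 6) in AcB55, or 2.05-fold (limma, adjusted p = 2.63e-06), and 0.69 ± 0.35 (SD, n = 7) in AcB61, or 1.61-fold (adjusted p = 7.6e-05). AcB61 minus AcB55 was -0.35 with a 95% interval from -0.65 to -0.06, which did not pass (adjusted p = 0.11).

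Pabpc1, the main cytoplasmic poly(A)-binding protein, ran from 0.58 through 0.66 to 0.89 on the AcB55 arrays and from 0.12 through 0.49 to 0.88 on the AcB61 arrays. Again every array lay above A/J and the strains overlapped. The means were 0.69 ± 0.11 in AcB55 (limma, adjusted p = 2.5e-05) and 0.49 ± 0.30 in AcB61 (adjusted p = 0.000208), and the difference of -0.20 (interval -0.45 to 0.05) did not pass. Within AcB61, Pabpc4 lay at 0.433 to 0.436 on arrays 2, 6 and 8 and at 0.678 to 1.22 on arrays 3, 5 and 7, and Pabpc1 at 0.125 to 0.272 and 0.626 to 0.883. Both genes were still called in AcB61 with arrays 2, 6 and 8 left out, at 0.87 for Pabpc4 and 0.67 for Pabpc1. With arrays 3, 5 and 7 left out instead, both were called as well, at 0.44 for Pabpc4 (adjusted p = 0.000418) and 0.32 for Pabpc1 (adjusted p = 0.00398).

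Of the 6 CPSF genes, 4 were called in neither strain, Cpsf3 was lower in both and Cpsf2 higher in both. Cpsf3, the endonuclease that cuts the transcript before its tail is added, was below A/J on every array. Its values ran from -0.36 through -0.25 to -0.08 in AcB55 and from -0.52 through -0.24 to -0.01 in AcB61. The means were -0.25 ± 0.097 (limma, adjusted p = 0.0123) and -0.28 ± 0.20 (adjusted p = 0.00218). The AcB61 value fell short without arrays 3, 5 and 7 (adjusted p = 0.0729), as did the AcB55 value without its first 2 arrays (adjusted p = 0.12).

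Cpsf2, a partner of Cpsf3 in the same cleavage complex, was higher in both. It ran from 0.16 through 0.32 to 0.39 in AcB55 and from 0.05 through 0.15 to 0.29 in AcB61, above A/J on every array. Its means were 0.29 ± 0.097 in AcB55 (limma, adjusted p = 0.000324) and 0.16 ± 0.096 in AcB61 (adjusted p = 0.0101, and 0.0692 without arrays 3, 5 and 7). Cstf2t, a relative of the RNA-binding CSTF subunit, lay between -0.36 and -0.18 in AcB55, with a median of -0.30, and between -0.19 and 0.10 in AcB61, with a median of -0.03. All AcB55 arrays were thus below A/J while AcB61 lay on both sides, and the strain ranges overlapped slightly. The AcB55 mean was -0.29 ± 0.060 (limma, adjusted p = 0.000338) and the AcB61 mean was -0.05 ± 0.12 (adjusted p = 0.531). The other 6 members, Cpsf1, Cpsf4, Cpsf4l, Cpsf6, Cstf1 and Cstf3, were called in neither strain.

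The exosome group had 7 members, with 1 higher and 1 lower in AcB55 and 2 higher in AcB61. Exosc9 encodes a subunit of the ring that forms the barrel of the exosome. It ran from 0.70 through 0.94 to 1.31 on the AcB55 arrays and from 0.62 through 0.78 to 1.42 on the AcB61 arrays, above A/J on every array and with overlapping ranges. The means were 0.97 ± 0.22 (limma, 1.97-fold, adjusted p = 6.07e-06) and 0.96 ± 0.35 (1.94-fold, adjusted p = 2.66e-06), and the difference was -0.02 with an interval from -0.32 to 0.28. Leaving out AcB61 arrays 2, 6 and 8, where Exosc9 lay at 1.28 to 1.42, gave 0.71 in AcB61. Leaving out arrays 3, 5 and 7, where it lay at 0.616 to 0.867, gave 1.09.

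The annotated RefSeq models of Exosc9 and Ccna2, which encodes a cyclin of S phase and mitosis, overlap on the genome. Ccna2 was also higher, at 1.04 ± 0.094 in AcB55 and 0.73 ± 0.28 in AcB61. On AcB61 arrays 2, 6 and 8, where Exosc9 was at 1.28 to 1.42, Ccna2 was at 0.917, 0.867 and 1.02, and on AcB61 array 7 it was at 0.158 beside 0.867 for Exosc9. On AcB61 array 3, however, Ccna2 was at 0.931 beside 0.616 for Exosc9, the lowest Exosc9 value in AcB61. Whether a spot for Exosc9 also takes up Ccna2 transcripts was not tested, since the strand and sequence of the spots were not used here. The next gene beyond Ccna2, Bbs7, was at 0.27 in AcB55 (limma, adjusted p = 0.055) and at -0.25 in AcB61 (adjusted p = 0.033). The neighbour on the other side of Exosc9, Smim43, was not among the tested genes.

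The other exosome genes did not share the level of Exosc9. Exosc8, another ring subunit, was higher in AcB61 at 0.24 ± 0.18 (limma, adjusted p = 0.0139, and 0.189 without arrays 3, 5 and 7) and was at 0.06 ± 0.22 in AcB55. Exosc10, the nuclear exonuclease of the complex, ran from -0.50 through -0.18 to -0.07 in AcB55, below A/J on every array. Its mean was -0.22 ± 0.16 (limma, adjusted p = 0.0193), and the call was lost without AcB55 array 3 (adjusted p = 0.0545) or array 6 (0.0988). That call was also lost without the 2 AcB55 arrays whose titles end in b (0.104). Exosc1, Exosc4, Exosc5 and Exosc7 were called in neither strain, with means from -0.21 to 0.15 in AcB55 and from -0.02 to 0.16 in AcB61.

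All 13 hnRNP genes had a positive mean in AcB55 and 11 of 13 in AcB61. In AcB55, 6 were higher and 0 lower; in AcB61, 5 were higher and 0 lower, and the median over the group was 0.20 and 0.16. The genes higher in both were Hnrnpa2b1, Hnrnpab, Hnrnpll and Hnrnpu. Hnrnph2 and Hnrnpk passed in AcB55 only and Hnrnpf in AcB61 only, but no hnRNP gene passed the test of the difference between the strains. Hnrnpa3, Hnrnpc, Hnrnpd, Hnrnpdl, Hnrnpr and Hnrnpul2 passed in neither.

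Hnrnpll, a splicing regulator of lymphocytes and plasma cells, ran from 0.30 through 0.36 to 0.61 in AcB55 and from 0.01 through 0.15 to 0.48 in AcB61. Every array was above A/J, and AcB55 lay mostly above AcB61 with some overlap. The means were 0.42 ± 0.14 (limma, adjusted p = 0.000126) and 0.19 ± 0.16 (adjusted p = 0.0202), and their difference did not pass (adjusted p = 0.0803). The AcB61 call was lost without array 3 (adjusted p = 0.0646) or array 6 (0.0558), and also without either trio (0.0821 and 0.127).

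Hnrnpab, which binds single-stranded RNA and DNA, ran from -0.02 through 0.34 to 0.58 in AcB55 and from 0.01 through 0.49 to 0.83 in AcB61. The low end of the AcB55 range touched the A/J level and the strains overlapped widely. The means were 0.31 ± 0.21 (limma, adjusted p = 0.0308) and 0.46 ± 0.31 (adjusted p = 0.000827). Without AcB55 array 1, 2, 3 or 4 the AcB55 call was lost, at adjusted p values from 0.0694 to 0.114, and without the first 2 together it was 0.27. In AcB61 it was kept without either trio, at 0.64 without arrays 2, 6 and 8 and at 0.28 without arrays 3, 5 and 7.

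Hnrnph2, an X-linked relative of the splicing factor hnRNP H, ran from -0.06 through 0.46 to 0.93 in AcB55 and from -0.18 through 0.19 to 0.87 in AcB61. Both ranges reached below A/J and overlapped. The AcB55 mean of 0.43 ± 0.33 passed (limma, adjusted p = 0.0225), but not without array 1 (0.0555), array 4 (0.101) or array 5 (0.0671). The AcB61 mean of 0.30 ± 0.40 did not pass, and there arrays 2, 6 and 8 lay at -0.175 to 0.05 and arrays 3, 5 and 7 at 0.610 to 0.872. Hnrnpd, an AU-rich element binding protein, split in the same way within AcB61, at -0.216 to -0.0431 against 0.740 to 0.849. In AcB55, Hnrnpd was above A/J on every array, from 0.14 to 0.27, with a mean of 0.20 ± 0.054. With the spread shared by both strains this mean did not pass (limma, adjusted p = 0.27).

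Of the remaining hnRNP genes, Hnrnpk was at 0.33 ± 0.20 in AcB55 (limma, adjusted p = 0.00119) and at 0.16 ± 0.11 (n = 7) in AcB61 (0.0691). Hnrnpu was at 0.23 ± 0.14 (0.00537) and 0.25 ± 0.11 (0.0013). Its AcB55 call rested on the average of 3 probes, of which 1 was called, and was lost with 1 probe per gene (adjusted p = 0.842). Hnrnpa2b1 was at 0.25 ± 0.22 (0.0169) and 0.23 ± 0.15 (0.0113), and its pair of probes differed, at 0.44 and -0.057 in AcB55. Without AcB55 array 3 its AcB55 call was lost (0.082), and without AcB61 arrays 2, 6 and 8 its AcB61 call was lost (0.14). Hnrnpf was at 0.16 ± 0.18 in AcB61 (0.0484), a call that was lost in 11 of the 14 fits that left out 1 array. Some of those fits left out an AcB55 array. The Hnrnpf call was also lost, at 0.11, without AcB61 arrays 3, 5 and 7 together (0.284). In a fit of the AcB61 arrays alone it was lost as well (0.0864). Without the first 2 AcB55 arrays the AcB55 calls of Hnrnpu (0.0844) and Hnrnpa2b1 (0.0963) were lost. Without the 2 AcB55 arrays whose titles end in b, the AcB55 calls of Hnrnph2 (0.217), Hnrnpa2b1 (0.209), Hnrnpab (0.152) and Hnrnpu (0.0554) were lost.

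**Figure D2:**
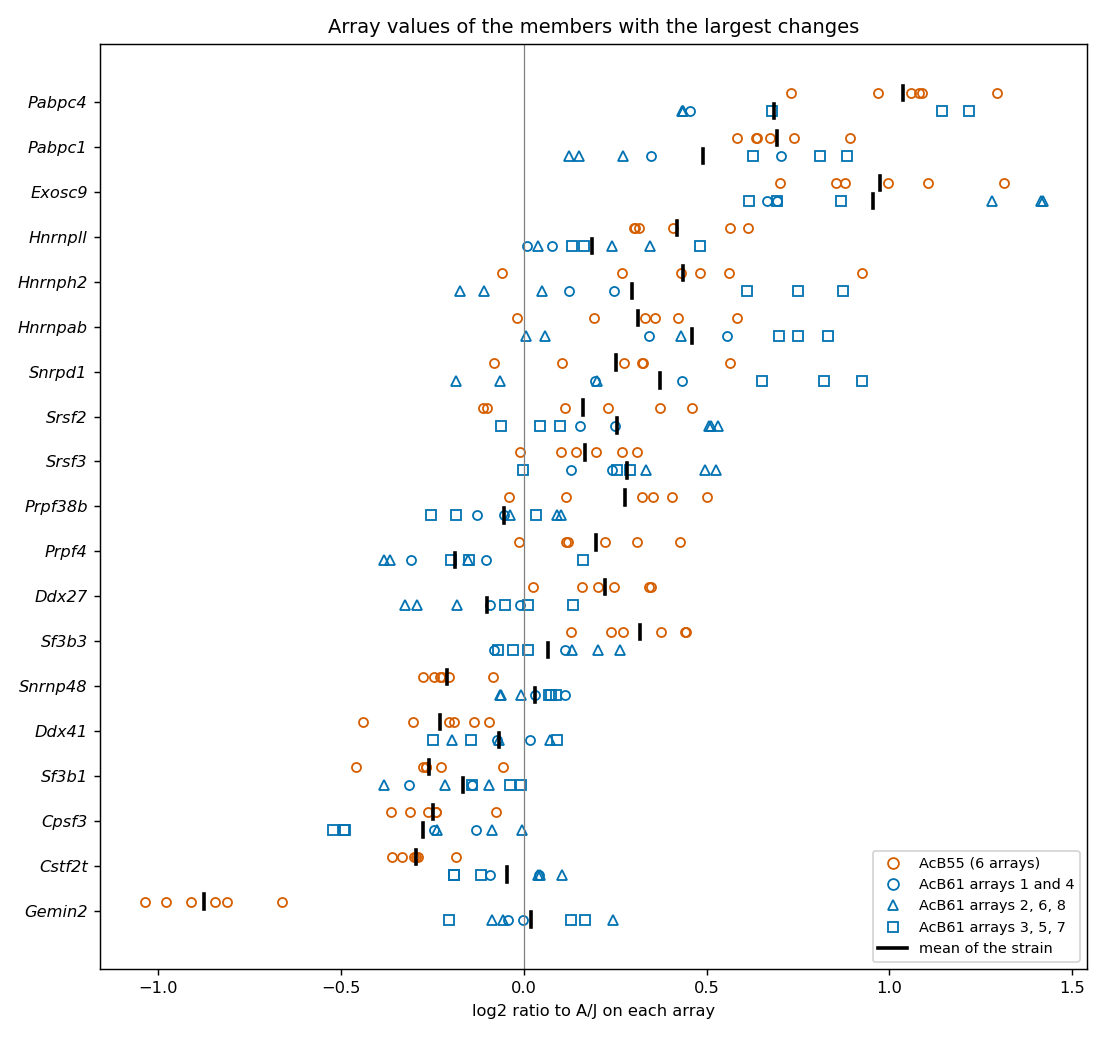
Log2 ratio to A/J on each array for the members described array by array, with AcB55 arrays (n = 6) and AcB61 arrays (n = 8) side by side and a bar at each strain's mean. Gemin2 in AcB55 sits between -1.04 and -0.66 and apart from AcB61, while Pabpc4 and Exosc9 sit above 0 on every array.

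The snRNP and spliceosome group was the largest, with 37 members. In AcB55, 5 were higher and 3 lower with a group median of 0.034, and in AcB61, 8 were higher and 2 lower with a median of 0.11. The members called higher in AcB55 were Prpf38b, Prpf4, Sf3b2, Sf3b3 and Sf3b4, and those called higher in AcB61 were Lsm2, Lsm3, Lsm7, Lsm8, Snrpb, Snrpd1, Snrnp40 and Sf3b4. Of these, Prpf4, Prpf38b and Sf3b3 passed the direct test between the strains and the others did not. Sf3b4 was called higher in both strains and Sf3b1 lower in both.

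LSm proteins 2 to 8 ring the end of the U6 RNA. The 4 measured genes of that ring were all called higher in AcB61 and none was called in AcB55, where their group median was 0.070. Lsm8, the subunit that marks the nuclear ring, ran from -0.18 through 0.32 to 0.79 in AcB61, with a mean of 0.31 ± 0.37 (limma, adjusted p = 0.0189). Lsm2 was at 0.21 ± 0.25 (0.0354), Lsm3 at 0.20 ± 0.17 (n = 7, 0.0173) and Lsm7 at 0.15 ± 0.12 (0.0283). The AcB61 arrays did not move as a group: Lsm8 lay at -0.183 to 0.180 on arrays 2, 6 and 8 and at 0.454 to 0.788 on arrays 3, 5 and 7, while Lsm2 lay at 0.297 to 0.704 and at -0.0860 to 0.101. Each of these 4 calls was lost on leaving out some single array: Lsm8 without AcB61 array 3 (0.0599), 4 (0.0562) or 7 (0.061), Lsm2 without 1 (0.0631), 2 (0.0919), 6 (0.0715) or 8 (0.111). Lsm3 was lost without array 1 (0.0543) or 4 (0.0678), and Lsm7 without array 1 (0.0562), 5 (0.0605), 6 (0.0791) or 7 (0.0819). In a fit of the AcB61 arrays alone, the calls of Lsm2 (0.0803), Lsm7 (0.0555) and Lsm8 (0.0721) were lost. Without arrays 3, 5 and 7 the AcB61 mean of Lsm8 was 0.10 (0.435), and that of Lsm7 was 0.12 (0.173) and of Lsm3 0.21 (0.057). Without arrays 2, 6 and 8 the mean of Lsm2 was 0.06 (0.532). None of the 4 passed the test between the strains; for Lsm8 the difference was 0.26 with an interval from -0.03 to 0.55 (adjusted p = 0.224).

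Sm proteins ring the U1, U2, U4 and U5 RNAs, and 5 of their genes were measured. In AcB55 none was called, and in AcB61 Snrpd1 and Snrpb were higher. Snrpd1 ran from -0.08 through 0.30 to 0.56 in AcB55 and from -0.18 through 0.32 to 0.92 in AcB61, with wide overlap and both ranges crossing the A/J level. Its means were 0.25 ± 0.22 (limma, adjusted p = 0.161) and 0.37 ± 0.41 (adjusted p = 0.0142), and the difference of 0.12 did not pass (interval -0.21 to 0.46). Without AcB61 arrays 3, 5 and 7 the AcB61 mean was 0.12 (adjusted p = 0.390), and without arrays 2, 6 and 8 it was 0.60 (0.000251). Snrpb was at 0.04 ± 0.18 in AcB55 and 0.31 ± 0.37 in AcB61 (0.0221), and there arrays 2, 6 and 8 lay at 0.700 to 0.751 against -0.125 to 0.0743 on arrays 3, 5 and 7. Its call was lost without array 2 (0.0685), 6 (0.0672) or 8 (0.0716), and without all 3 of these arrays the AcB61 mean of Snrpb was 0.06 (0.587). The Snrpb call was also lost in a fit of the AcB61 arrays alone (0.0651). Snrpd2 was at -0.26 ± 0.41 in AcB55 and 0.13 ± 0.22 in AcB61, and its difference of 0.40 (interval 0.09 to 0.71) did not pass after adjustment (0.0831).

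The SF3B complex recognises the branch site within the U2 snRNP. Sf3b1, its scaffold subunit, ran from -0.46 through -0.27 to -0.06 in AcB55 and from -0.38 through -0.14 to -0.01 in AcB61, below A/J on all 14 arrays. The means were -0.26 ± 0.13 (limma, adjusted p = 0.00323) and -0.17 ± 0.13 (adjusted p = 0.0206). Neither of its probes passed alone, the AcB61 call was lost without array 4 (0.0643), array 6 (0.064) or the trio 2, 6 and 8 (0.141), and with 1 probe per gene both calls were lost (0.0737 in AcB55 and 0.218 in AcB61). Sf3b4, in contrast, was higher in both, at 0.16 ± 0.13 (0.0498) and 0.22 ± 0.12 (0.00319). Its AcB55 call was lost in 11 of the 14 fits without 1 array, some of which left out an AcB61 array. That call was also lost without the 2 AcB55 arrays whose titles end in b (0.0564). A fit of the AcB55 arrays alone lost it too (0.0651). Without the first 2 AcB55 arrays it was lost as well, at a mean of 0.09 (0.391). Sf3b2 was at 0.26 ± 0.19 in AcB55 (0.00537) and 0.01 in AcB61 (0.917), and the difference just missed (0.0564). The pair of Sf3b2 probes differed in AcB55, at 0.37 and 0.14, and 1 of 2 was called.

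Sf3b3, a further subunit of this complex, ran from 0.13 through 0.32 to 0.44 in AcB55 and from -0.08 through 0.06 to 0.26 in AcB61. All AcB55 arrays were above A/J, and the upper AcB61 arrays reached into the AcB55 range. The means were 0.32 ± 0.13 (limma, adjusted p = 0.000577) and 0.07 ± 0.13 (adjusted p = 0.388). Snrnp40, a U5 protein, was higher in AcB61 at 0.18 ± 0.13 (0.0191), and the call was lost without array 3 (0.0546) or 7 (0.0547), or at 0.10 without arrays 3, 5 and 7 together (0.271). Prpf6, which bridges the snRNPs of the tri-snRNP, was lower in AcB55 at -0.21 ± 0.13 (0.00779) and at -0.01 in AcB61 (0.874). A further 22 members of the snRNP and spliceosome group had no call in either strain, among them the catalytic core gene Prpf8, at -0.14 in AcB55 and 0.01 in AcB61, and the helicase gene Snrnp200, at -0.03 and 0.10.

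SR proteins were represented by Srsf2, Srsf3, Srsf6, Srsf10 and Srsf11, and none was called in AcB55. Srsf3, the smallest SR protein, ran from -0.01 through 0.17 to 0.31 in AcB55, and from -0.0013 through 0.27 to 0.52 in AcB61. The ranges overlapped, and nearly all arrays of both strains lay above A/J. The AcB61 mean of 0.28 ± 0.17 passed (limma, adjusted p = 0.00126) and the AcB55 mean of 0.17 ± 0.12 did not (adjusted p = 0.0735). Their difference was 0.11 (interval -0.06 to 0.29, adjusted p = 0.409). With 1 probe per gene the AcB61 call was lost (adjusted p = 0.0979).

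Srsf2, which also binds exonic enhancers, ran from -0.11 through 0.17 to 0.46 in AcB55 and from -0.06 through 0.20 to 0.53 in AcB61. These ranges nearly coincided. The means were 0.16 ± 0.24 (limma, adjusted p = 0.231) and 0.25 ± 0.23 (adjusted p = 0.0211). The AcB61 call was lost without array 2 (0.0632), 6 (0.0594) or 8 (0.065), the arrays on which Srsf2 was at 0.507 to 0.530, and without all 3 the mean was 0.10 (0.412). The mean over the 5 SR genes was 0.323, 0.336 and 0.401 on AcB61 arrays 2, 6 and 8, against -0.126, 0.00628 and -0.000245 on arrays 3, 5 and 7.

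**Figure D3:**
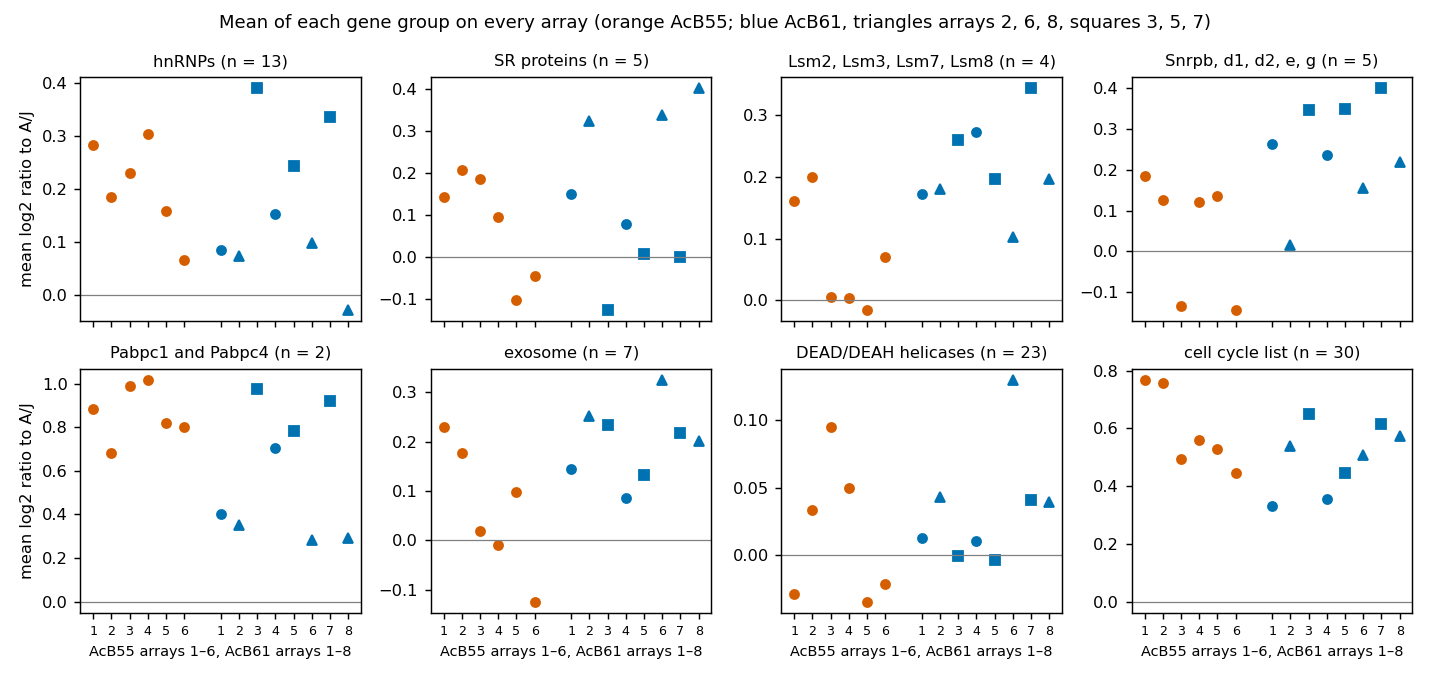
Mean log2 ratio to A/J on each of the 14 arrays over hnRNPs, SR proteins, the LSm ring, the Sm ring, the Pabpc pair, exosome genes, helicases and the cell cycle list, each panel on its own scale. AcB61 arrays 2, 6 and 8 (triangles) are highest for SR proteins while arrays 3, 5 and 7 (squares) are highest for hnRNPs and the Pabpc pair, so the groups did not share an order of arrays.

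Few helicases were called. Of 23 members, 2 were higher and 1 lower in AcB55, 1 was higher in AcB61, and the group medians were 0.0017 and 0.030. Ddx39a, which couples splicing to export of messenger RNA, was higher in both, at 0.38 ± 0.14 in AcB55 (limma, adjusted p = 0.0157) and 0.33 ± 0.37 in AcB61 (adjusted p = 0.0149). In AcB61 it ran from -0.05 through 0.20 to 1.00, and without arrays 3, 5 and 7 its mean was 0.10 (adjusted p = 0.312). The AcB61 call of Ddx39a was also lost in a fit of the AcB61 arrays alone (0.0545). The AcB55 call of Ddx39a was lost without array 4 (0.0622) or the first 2 arrays together (0.0653). It was also lost without the 2 AcB55 arrays whose titles end in b (0.0924).

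Ddx41, a helicase that also takes part in sensing of DNA, ran from -0.44 through -0.20 to -0.09 in AcB55, below A/J on every array. Its mean was -0.23 ± 0.13 (limma, adjusted p = 0.00684), against -0.07 ± 0.12 in AcB61 (adjusted p = 0.363), and the difference of 0.16 did not pass (0.175). The sensor of viral RNA RIG-I, listed as Ddx58, was negative on every array of both strains, but its means of -0.08 and -0.11 did not pass in either. Ddx3x, an X-linked helicase of translation, was at -0.02 ± 0.21 and -0.03 ± 0.19. Sex is not given, and the X-inactivation RNA Xist was at 0.02 ± 0.057 in AcB55 and -1.20 ± 0.38 in AcB61, whose part in the X-linked members Ddx3x and Hnrnph2 was not tested.

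The SMN complex was represented by Gemin2, Gemin5 and Gemin6. Gemin2, which holds the Sm proteins before they close around the RNA, ran from -1.04 through -0.88 to -0.66 on the AcB55 arrays and from -0.21 through -0.02 to 0.25 on the AcB61 arrays. Every AcB55 array lay well below A/J and below every AcB61 array. The AcB55 mean was -0.87 ± 0.13 (SD, n = 6), 1.83-fold below A/J (limma, adjusted p = 4.33e-08), and the AcB61 mean was 0.02 ± 0.15 (SD, n = 8, adjusted p = 0.863). Of all members this was the largest decrease in either strain. Gemin5, at 0.05 in AcB55 and 0.10 in AcB61, and Gemin6, at 0.10 and 0.09, were called in neither. Among the genes next to Gemin2 on its chromosome, Trappc6b was at -0.14 in AcB55 (adjusted p = 0.255) and Pnn at -0.04 (0.785), so neither neighbour that was tested passed.

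AcB61 was then compared with AcB55 directly, a difference in which the A/J reference cancels. Only 7 of 99 members passed, or 7.07% against 12.3% of all features and 10.4% of named genes. Those higher in AcB61 were 3, or 3.03% of members against 5.29% of features and 6.79% of named genes. Those lower were 4, or 4.04% of members against 6.98% of features and 3.63% of named genes, so the lower share lay near that of named genes. The median difference was 0.06 over members and 0.012 over features. Higher in AcB61 were Gemin2, Cstf2t and Snrnp48, each of which was below A/J in AcB55 and near it in AcB61. Lower in AcB61 were Prpf4, Prpf38b, Ddx27 and Sf3b3, each of which was above A/J in AcB55.

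The difference for Gemin2 was 0.89 (95% interval 0.72 to 1.06; limma, adjusted p = 5.08e-06), the only one of 0.5 or more. Snrnp48, a protein of the U11/U12 snRNP that removes the rare minor introns, ran from -0.28 through -0.23 to -0.08 in AcB55 and from -0.06 through 0.05 to 0.11 in AcB61. Like Gemin2, and like no other member, its strain ranges did not overlap. Such ranges held for 2.02% of members, beside 2.67% of all features and 2.61% of named genes. The Snrnp48 means were -0.21 ± 0.067 and 0.03 ± 0.068, a difference of 0.24 (interval 0.12 to 0.36, adjusted p = 0.0142). Cstf2t differed by 0.25 (interval 0.11 to 0.39, adjusted p = 0.0226), a call lost without AcB55 array 5 (0.0566) or 6 (0.0544), or without AcB61 arrays 2, 6 and 8 (0.0785). The Cstf2t difference was also lost without the 2 AcB55 arrays whose titles end in b (0.0527), and 1 of its 2 probes was called alone.

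Prpf4, a U4/U6 protein, was the single member called in opposite directions in the strains. It ran from -0.01 through 0.17 to 0.43 in AcB55 and from -0.38 through -0.18 to 0.16 in AcB61. Most AcB55 arrays were above A/J and most AcB61 arrays below, with a small overlap. The means were 0.20 ± 0.16 (limma, adjusted p = 0.0489) and -0.19 ± 0.18 (adjusted p = 0.0272), and the difference was -0.38 (interval -0.57 to -0.19, adjusted p = 0.0117). The AcB55 call was lost in 10 of the 14 fits without 1 array. Those without AcB61 array 1, 2, 4, 5 or 7 were among them. The AcB55 call was also lost without the 2 AcB55 arrays whose titles end in b (0.133). The AcB61 call was lost without AcB61 array 1 (0.0721), 6 (0.0752) or 8 (0.0772). The difference passed in all of these fits. Without AcB61 arrays 2, 6 and 8 together the AcB61 mean of Prpf4 was -0.12 (0.245). Cdc26, the gene on the far side of the Prpf4 promoter stretch, was at -0.11 in AcB55 (n = 5, adjusted p = 0.446) and at 0.16 in AcB61 (0.112).

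Prpf38b, a relative of a U4/U6.U5 factor, ran from -0.04 through 0.34 to 0.50 in AcB55 and from -0.25 through -0.05 to 0.10 in AcB61. AcB55 lay mostly above AcB61 and overlapped it at its lower end. The difference was -0.33 (interval -0.52 to -0.14, limma, adjusted p = 0.0226), and it was lost without AcB55 array 3, 4, 5 or 6, at adjusted p values from 0.052 to 0.0639. Without the 2 AcB55 arrays whose titles end in b, the difference (0.123) and the Prpf38b call against A/J in AcB55 (0.089) were lost. Ddx27, a helicase of ribosome production, ran from 0.03 through 0.22 to 0.35 in AcB55 and from -0.33 through -0.07 to 0.13 in AcB61, again with a small overlap. Its difference was -0.32 (interval -0.49 to -0.15, adjusted p = 0.0168), and it was lost without AcB61 arrays 2, 6 and 8, at -0.22 (0.0541). The Ddx27 call against A/J in AcB55 was lost without AcB55 array 1 (0.0545), array 4 (0.0582) or the first 2 arrays together (0.0849). The pair of Ddx27 probes differed in AcB55, at 0.40 and 0.043, and 1 of 2 was called for the difference between the strains. For Sf3b3 the difference was -0.25 (interval -0.41 to -0.09, adjusted p = 0.0401), and it was lost in 10 of the 14 fits without 1 array and without AcB61 arrays 3, 5 and 7 (0.117). The Sf3b3 difference was also lost without the 2 AcB55 arrays whose titles end in b (0.138) and with 1 probe per gene (0.0557). Neither of its probes passed alone for the difference.

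**Figure D4:**
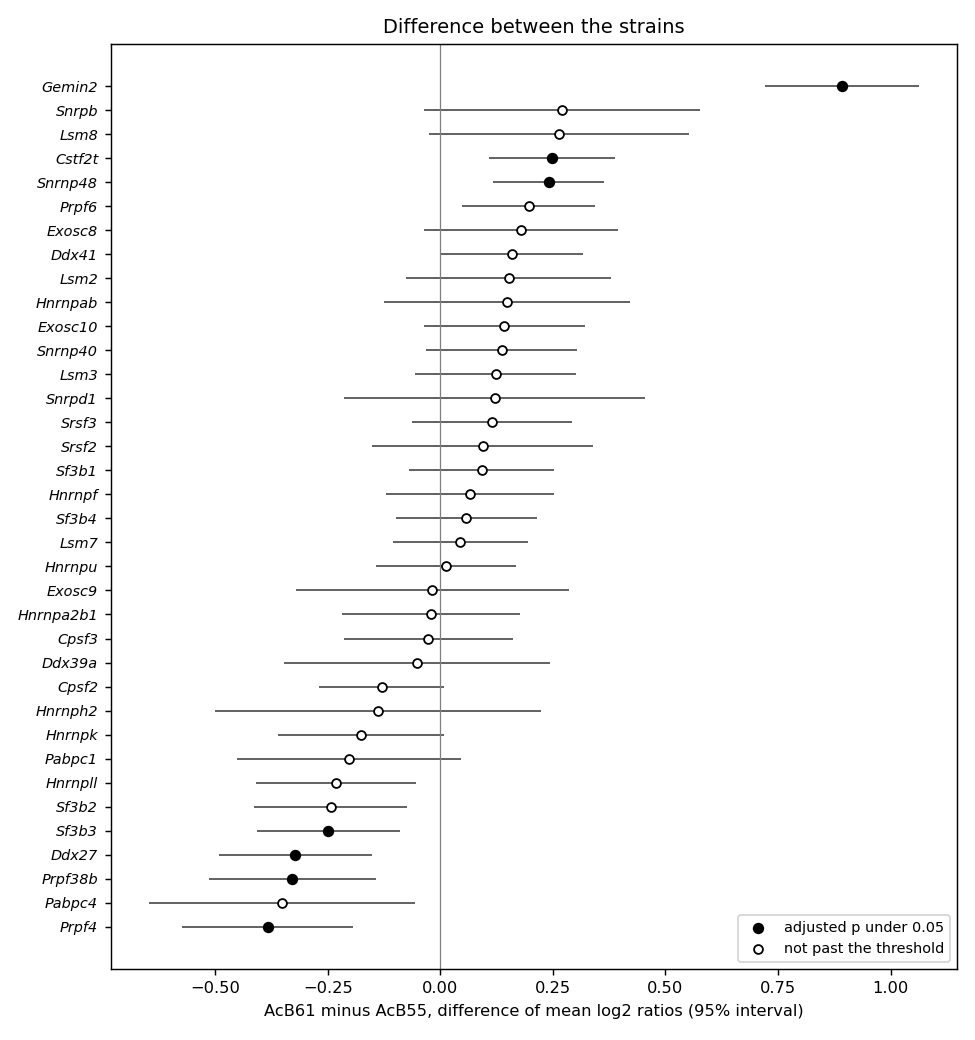
Difference in mean log2 ratio, AcB61 minus AcB55, with its 95% interval from limma, for the members called in any of the 3 comparisons. Gemin2 stands alone at 0.89, and the other 6 members that passed lie between -0.38 and 0.25.

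Across both strains, 10 members were higher in each, Cpsf2, Ddx39a, Exosc9, Hnrnpa2b1, Hnrnpab, Hnrnpll, Hnrnpu, Pabpc1, Pabpc4 and Sf3b4, and Cpsf3 and Sf3b1 were lower in each. The share of all features called in both strains was not determined, and both comparisons use the same A/J reference. These counts therefore have no background beside them. On every array of both strains, 8 members were positive, beside 3.06% of all features. In AcB61 alone, 11 members were positive on every array (6.52% of features) and 3 were negative (7.69% of features). In AcB55 alone, 16 were positive (10.6%) and 11 negative (13.2%). The 8 members positive throughout were Cpsf2, Exosc9, Hnrnpa2b1, Hnrnpk, Hnrnpll, Hnrnpu, Pabpc1 and Pabpc4. Cpsf3, Ddx58 and Sf3b1 were negative on every array, beside 2.15% of features. A total of 63 members passed in none of the 3 comparisons, a count that also has no share of features beside it.

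Other genes of RNA processing, a list of 151 symbols outside the rule, gave 104 tested genes. In AcB55, 21 were higher and 3 lower, and in AcB61, 13 were higher and 3 lower, with medians of 0.043 and 0.047. The largest increases in AcB55 were those of the splicing repressor Ptbp1, at 0.69 ± 0.34 (limma, adjusted p = 0.000105), Bclaf1, at 0.45 ± 0.13 (4.69e-06), and Rbmxl1, at 0.42 ± 0.18 (0.000122). The decreases were Rbm22, a factor of the catalytic spliceosome, at -0.63 ± 0.20 (2.35e-05), the splicing regulator Mbnl1, at -0.28 ± 0.26 (0.0142), and Khdrbs1, at -0.24 ± 0.12 (0.00292). In AcB61 the largest increases were the SF3B subunit Phf5a, at 0.36 ± 0.26 (0.00206), the export adaptor Alyref, at 0.34 ± 0.30 (0.00699), and Raly, at 0.30 ± 0.18 (0.00614). The largest decreases there were the SR protein kinase Srpk2, at -0.35 ± 0.22 (0.000496), Rbm22, at -0.28 ± 0.22 (0.00626), and the nuclear exonuclease Xrn2, at -0.20 ± 0.21 (0.0441).

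Genes of cell division and markers of erythroid precursors moved beside these calls, and their part in them was not tested. Of 30 tested genes for DNA replication or mitosis, 24 were higher and 0 lower in each strain, with array means from 0.447 to 0.768 in AcB55 and from 0.330 to 0.650 in AcB61. Of 15 tested markers of red cell precursors, 12 were higher in each strain, with 1 lower in AcB55, and array means ran from 0.418 to 0.732 and from 0.501 to 0.715. The mean over all 99 members was smaller, from -0.0277 to 0.102 on the AcB55 arrays and from 0.0642 to 0.152 on the AcB61 arrays. Of 61 cytosolic ribosomal protein genes, 39 were lower and 0 higher in AcB55, against 1 lower and 2 higher in AcB61.

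Of 4 tested granulocyte genes, 1 was higher in AcB55, and 2 were higher and 1 lower in AcB61, with array means from -0.0448 to 1.31 and from 0.270 to 0.749. Of 5 macrophage genes, 1 was higher and 4 lower in AcB55, and 1 was higher and 2 lower in AcB61. Of 7 genes of stroma and vessels, 7 were lower in AcB55, and 5 were lower and 1 higher in AcB61. The single B cell gene tested, Blnk, was lower in both, at -1.07 in AcB55 and -0.58 in AcB61. Satb1, the single T cell gene, was lower in AcB55, and the single exocrine pancreas gene, Cpa1, was called in neither.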

How the data were processed

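Spleen RNA of AcB55 (6 arrays) and AcB61 (8 arrays) was co-hybridised with A/J spleen RNA on 2-colour cDNA arrays. The log2 ratios were used as the authors deposited them. Per the labels, arrays were scanned with a ScanArray instrument, quantified with QuantArray 3.0 and imported into GeneSpring with spot flags. Background correction, normalization, dye orientation and log base are not given in the sources used here; base 2 was taken, so another base would rescale every log ratio without changing a test.

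Probes with 1 gene symbol on the platform were averaged per gene and array, and 10 probes shared by a member and another gene were left out. Features with values on at least 3 arrays of each strain were fitted with limma 3.58.1 in R 4.3.3 (lmFit and eBayes, 1 mean per strain), two-sided, with Benjamini-Hochberg adjustment over 13045 features. The fit was also run on simulated data with independent noise on each array. That noise lacks the correlation within the AcB61 trios, so the run gives no error rate for these arrays. Of the 99 members, 75 rest on 1 probe, 24 on several and 93 had a value on all arrays. The number of arrays limits the precision.

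Members and gene lists were chosen with earlier results of these data known. The rule for values array by array took up to 5 called members with the largest change per direction in each of 3 comparisons, and every called member of role groups with 5 or fewer members; up to 3 other RNA-processing genes per strain and direction were named. No member had probes called in opposite directions. Alternatives covered centring, scaling, complete features, 1 probe per gene, array weights, each strain alone, robust eBayes, arrays left out singly and the AcB55 pair whose titles end in b. Leaving out the first 2 AcB55 arrays or either trio of AcB61 arrays was added after seeing the data. All 99 members matched the RefSeq table of GRCm38.p6.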

Additional observations from a re-analysis of the deposited data

Results flagged for a closer look

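The 7 members that differed between the strains in limma were Gemin2 (AcB61 minus AcB55, 0.893), Cstf2t (0.249), Snrnp48 (0.24), Prpf4 (-0.384), Prpf38b (-0.33), Ddx27 (-0.322) and Sf3b3 (-0.249), all on the log2 scale.

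A single array lay far from the other arrays of its strain in 9 of 198 groups of values, where chance flags about 1 in 20. In AcB55, Ddx47 was at -0.0929 on array 4 while the other arrays gave 0.092 to 0.171. Ddx55 was at 0.179 on array 5, Ddx58 at -0.311 on array 1, and Dhx38 at -0.382 on array 6. Snrnp48 was at -0.0835 on array 3 against -0.276 to -0.206 elsewhere, which makes the gap between the strains narrowest there. In AcB61, Ddx4 was at 0.336 on array 7, Dhx15 at 0.547 on array 6, Gemin5 at -0.126 on array 5, and Prpf6 at 0.195 on array 8. Of these genes, Snrnp48 and Prpf6 carry a call in AcB55.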

How the results depend on the processing

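Of 25 members called in AcB55, 13 were called in every setting tried, as were 6 of 24 in AcB61 and 3 of 7 for the difference, and no called value changed sign. Members higher in AcB55 fell from 17 to 9 without the arrays marked b and to 11 without the first 2 AcB55 arrays. For the difference, members higher in AcB61 went from 3 to 6 with array weights, 6 without the first 2 AcB55 arrays, 8 without AcB61 arrays 2, 6 and 8, and 10 without arrays 3, 5 and 7. Members lower in AcB61 than AcB55 went from 4 to 8 with array weights, 2 without the arrays marked b, and 10 without arrays 3, 5 and 7. The cause was not tested. The counts in this paragraph are given without the share of all features called in each setting, so they do not describe the members apart from other genes. Leaving out 1 array gave 11 to 18 members higher (11 without AcB55 array 4) and 7 to 9 lower in AcB55, and 17 to 22 higher and 2 to 4 lower in AcB61. For the difference it gave 2 to 6 higher (6 without AcB55 array 2, 5 without array 1) and 2 to 6 lower (2 without AcB55 array 4, 5 or 6). The number of arrays limits small changes: called members had absolute log2 ratios of at least 0.16 in AcB55 and 0.15 in AcB61. No paired analysis was possible because the labels give no replicate numbers that the strains share.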
